A study of Rattus norvegicus with 10 samples.

Results

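The cytosolic ribosomal protein genes encode the protein part of the ribosome, and their messages were followed here on microarrays of microglia, the resident macrophages of the brain, cultured with or without interferon gamma (IFN-gamma). They were taken by name: every gene with a probe set whose only symbol in the platform annotation begins with Rpl or Rps and a digit, or is Rplp0 or Rpsa, with the S6 kinases (Rps6k) left out. The rule found 43 genes on 63 probe sets, of 4736 genes on 8740 probe sets in all, and 29 of the 43 belong to the large and 14 to the small subunit. Among them are 2 symbols that the RefSeq table lists as pseudogenes (Rps2-ps1 and Rps4x-ps9), and 4 that name paralogs of a core gene (Rpl3l, Rps27l, Rpl36al1 and Rpl19l4). A further 40 probe sets list a ribosomal protein gene among several symbols and are not counted as members, and Rpl10, Rps2, Rps19 and Rplp2 are named on such probe sets alone.

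The IFN-gamma group held 3 cultures, given fresh medium with 100 U/ml of the cytokine for 16 hours. Culture 1 of this group was hybridised to 3 technical arrays (1a, 1b and 1c), which were averaged. The control group held 5 cultures, numbered 1, 2, 3, 5 and 6, given fresh medium alone. All cells were primary microglia from neonatal rat brain, with tissue of 1 brain per flask, kept in medium with fetal calf serum and plated on day 15. These are bulk cultures, so fewer cells of a type and less RNA per cell cannot be told apart.

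Mammalian ribosomes pair a small subunit, which reads the message, with a large subunit, which joins the amino acids, and each subunit needs most of its proteins in equal numbers. Their messages are among the most abundant in growing cells and carry, directly at the cap, a run of pyrimidines (the terminal oligopyrimidine or TOP motif) through which the kinase mTOR and the binding protein Larp1 control their translation. An array measures the amount of each message and not its translation.

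The start sites of some of the members are shown because the TOP motif lies there. Each line gives 20 bases before and 20 bases from the start annotated by RefSeq on GRCr8, on the gene's own strand, 5′ to 3′, with the longest run of C and T in capitals. Rpl24, Rpl31, Rpl7a and Rps15 had the lowest or best separated values after IFN-gamma, and Rpl5, Rpl18 and Rps9, like Rpl24, kept 1 direction under every scaling. So did Rpl3l, Rpl36al1 and Rps2-ps1, which are not shown.
Rpl24, chr11:58128386-58128425, minus strand: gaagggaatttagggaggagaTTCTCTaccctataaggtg
Rpl31, chr9:49143091-49143130, plus strand: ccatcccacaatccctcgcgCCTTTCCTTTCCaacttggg
Rpl7a, chr3:30637116-30637155, plus strand: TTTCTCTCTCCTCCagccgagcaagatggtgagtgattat
Rps15, chr7:10068096-10068135, minus strand: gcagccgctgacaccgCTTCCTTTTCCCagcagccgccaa
Rpl5, chr14:1995206-1995245, minus strand: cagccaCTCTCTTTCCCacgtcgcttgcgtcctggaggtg
Rpl18, chr1:105325250-105325289, plus strand: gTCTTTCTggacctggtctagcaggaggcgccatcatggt
Rps9, chr1:74430418-74430457, minus strand: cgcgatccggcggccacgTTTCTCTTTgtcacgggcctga

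The pyrimidine run of Rpl31 began at the annotated start itself and was 12 bases long. The run of Rps15 was also 12 bases long and began 4 bases before the annotated start. That of Rpl7a filled the first 14 bases of the window and so ended before the annotated start, as did the marked runs of Rpl5 and Rpl18. In Rpl24 the longest run had 6 bases. Over the 37 members with an entry in the promoter table, 25 (67.6%) had 8 or more C or T in a row within 20 bases of the start, against 15.5% of all 33469 promoters. A C at the start with C or T over the next 4 bases was present in 11 members (29.7%), against 2.63% of all promoters.

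Letters of further motifs were counted in the 300 bases from 250 before to 50 after the start, on both strands. The core of the interferon-stimulated response element, which interferon regulatory factors bind, was present in 2 of the 37 members (5.41%, against 3.92% of all promoters), and without its last letter, as GAAANNGAA, in 6 (16.2%, against 9.71%). CGGAAG, a core of ETS factors, was present in 16 members (43.2%, against 16.6%). AAGATGG, a core bound by Yy1, was present in 8 (21.6%, against 7.01%). Each motif was counted once per promoter whether or not it overlapped another, and a match describes letters only.

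The levels below are log2(signal + 16) after quantile normalisation of the 10 arrays, and a difference is IFN-gamma minus control on that scale. Differences were tested with limma, two-sided, with Benjamini-Hochberg adjustment over all 8740 probe sets, and every adjusted p comes from that test with 3 IFN-gamma and 5 control cultures. The deposited signals were not on a common scale, with array medians of 11.1 to 23.7 in the IFN-gamma group and 7.4 to 20.25 in the control group. The lowest median was that of control culture 3 and the highest that of the technical array 1b. The label of the treatment was borne out by Cd74, the invariant chain of class II molecules, at 10.1 ± 0.175 in IFN-gamma cultures and 4.51 ± 0.41 in control cultures (SD, n = 3 and 5, adjusted p = 5.51e-06 by limma). Of the 10 microglial marker genes measured, C1qb and C1qc were higher after IFN-gamma at the threshold of 0.05.

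No ribosomal protein gene passed an adjusted p of 0.05 in either direction by limma in the comparison of 3 with 5 cultures, while Rpl24 and Rpl31 passed as lower under other settings given with their values below. Of all 4736 genes, 0.887% were called higher and 0.697% lower, so that a count of 0 among 43 lies near the background. At an unadjusted p under 0.05, 0 members were higher and 4 were lower (Rpl24, Rpl31, Rpl7a and Rpl27a, all of the large subunit), against 5.85% and 5.26% of all genes. The IFN-gamma cultures lay wholly below the controls for 3 members (Rpl24, Rpl31 and Rpl7a) and wholly above them for 0, where 3.65% and 4.16% of all genes were so placed. The difference was below 0 for 36 of the 43 genes, 24 of 29 in the large and 12 of 14 in the small subunit, against 52.9% of all genes. That count holds for quantile normalisation, and under the other scalings described below it was 38 after cyclic loess, 35 after total signal, 27 after the trimmed mean, 15 after the 75th percentile, 7 after array medians and 3 with no scaling.

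The differences of the members ran from -0.85 to 0.26 with a median of -0.28, and their SD was 0.218, against 0.444 over all genes. The 95% interval of the difference lay within 1 log2 unit of 0, or 2-fold either way, for 36 of the 43 members and for 66.1% of all genes. The 7 with a wider interval were Rpl24, Rpl22, Rpl23, Rpl26, Rpl19l4, Rps15 and Rps2-ps1. The median SD of a member over cultures was 0.261 in the IFN-gamma group and 0.238 in the control group, and 0.181 over the technical arrays of 1 culture. Over all genes, most of them dimmer, these medians were 0.253, 0.415 and 0.322, so the members also varied less over control cultures and technical arrays.

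**Figure D1:**
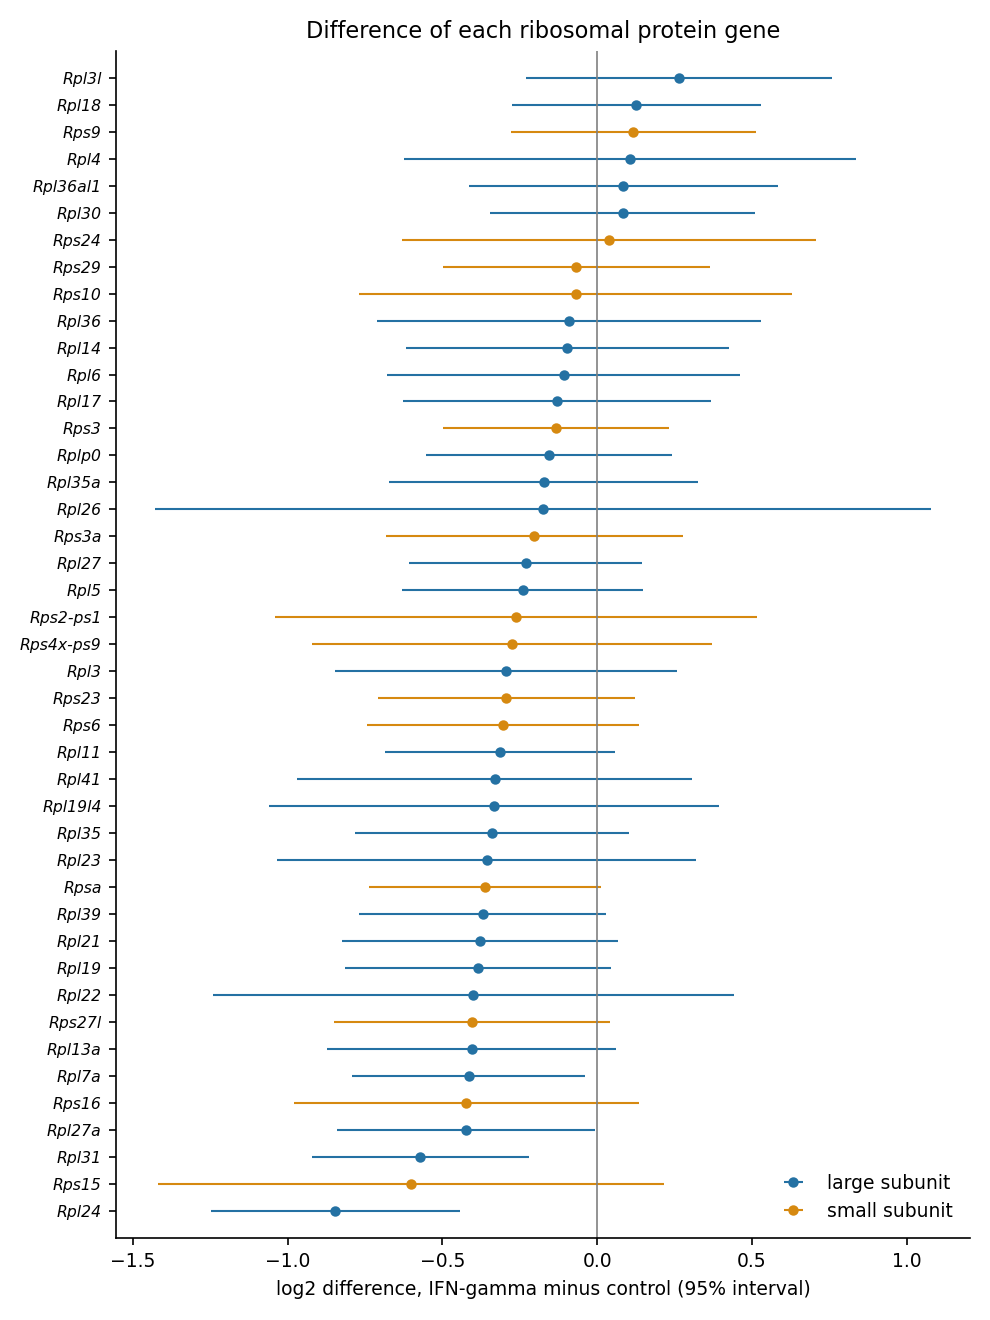
The log2 difference, IFN-gamma minus control, of each of the 43 ribosomal protein genes after quantile normalisation, with its 95% interval, in blue for the large and in orange for the small subunit. Of the 43 points 36 lie below 0, and the intervals of Rpl24, Rpl31, Rpl7a and Rpl27a leave out 0. With no scaling 3 of the 43 differences were below 0.

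Rpl24, a large subunit protein whose mutation in mice lowers protein synthesis, had the lowest value of all members. Its level was 8.53, 8.84 and 8.94 in the 3 IFN-gamma cultures, against 9.65, 9.41, 9.50, 9.91 and 9.59 in the control cultures. All the treated cultures lay below all the controls, and the 3 technical arrays lay within 8.49 to 8.57. The means were 8.77 ± 0.214 and 9.61 ± 0.191 (SD, n = 3 and 5), a difference of -0.85 ± 0.179 (SE) with a 95% interval of -1.25 to -0.44, and the adjusted p was 0.0575 by limma. The adjusted p of Rpl24 by limma was 0.0109 with all 10 arrays and culture as a random block (estimated correlation 0.228), 0.0168 with a trend and robust fitting and 0.0191 with a pseudocount of 64. The estimated correlation comes from IFN-gamma culture 1 alone, the only culture with several arrays. In the random block fit that culture, the lowest in Rpl24, weighs more than any other. The second probe set of Rpl24 gave -0.70 with an adjusted p of 0.147 by limma, and its groups did not overlap either. In the deposited signal, before any scaling, Rpl24 read 259.5, 849.2, 206.1, 622.2 and 879.2 on arrays 1a, 1b, 1c, 2 and 3 of the IFN-gamma group, against 1552.2, 384.8, 180.7, 766.5 and 938.3 on the control arrays. On that scale the groups overlapped, and the 3 arrays of the same IFN-gamma culture ran from 206.1 to 849.2.

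Rpl31, a large subunit protein near the exit of the peptide tunnel, had levels of 8.93, 9.22 and 9.28 in IFN-gamma cultures, against 9.86, 9.65, 9.63, 9.71 and 9.73 in control cultures. The 2 groups were apart, with a difference of -0.57 (95% interval -0.92 to -0.22) and an adjusted p of 0.153 by limma. That of Rpl31 was 0.0472 with the random block, 0.0233 with the pseudocount of 64 and 0.104 with a trend and robust fitting. Rpl7a, a large subunit protein whose gene hosts small nucleolar RNAs in human cells, had 7.97, 8.08 and 8.24 in IFN-gamma cultures and 8.34, 8.70, 8.41, 8.73 and 8.39 in control cultures. Its groups were also apart, by a smaller gap, with a difference of -0.42 and an adjusted p of 0.405 by limma. Rpl27a, another large subunit protein, had 9.67, 10.2 and 9.79 in IFN-gamma cultures and 10.5, 9.97, 10.3, 10.3 and 10.4 in control cultures. Here the groups overlapped through control culture 2 and the difference was -0.42 with an adjusted p of 0.462 by limma.

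**Figure D2:**
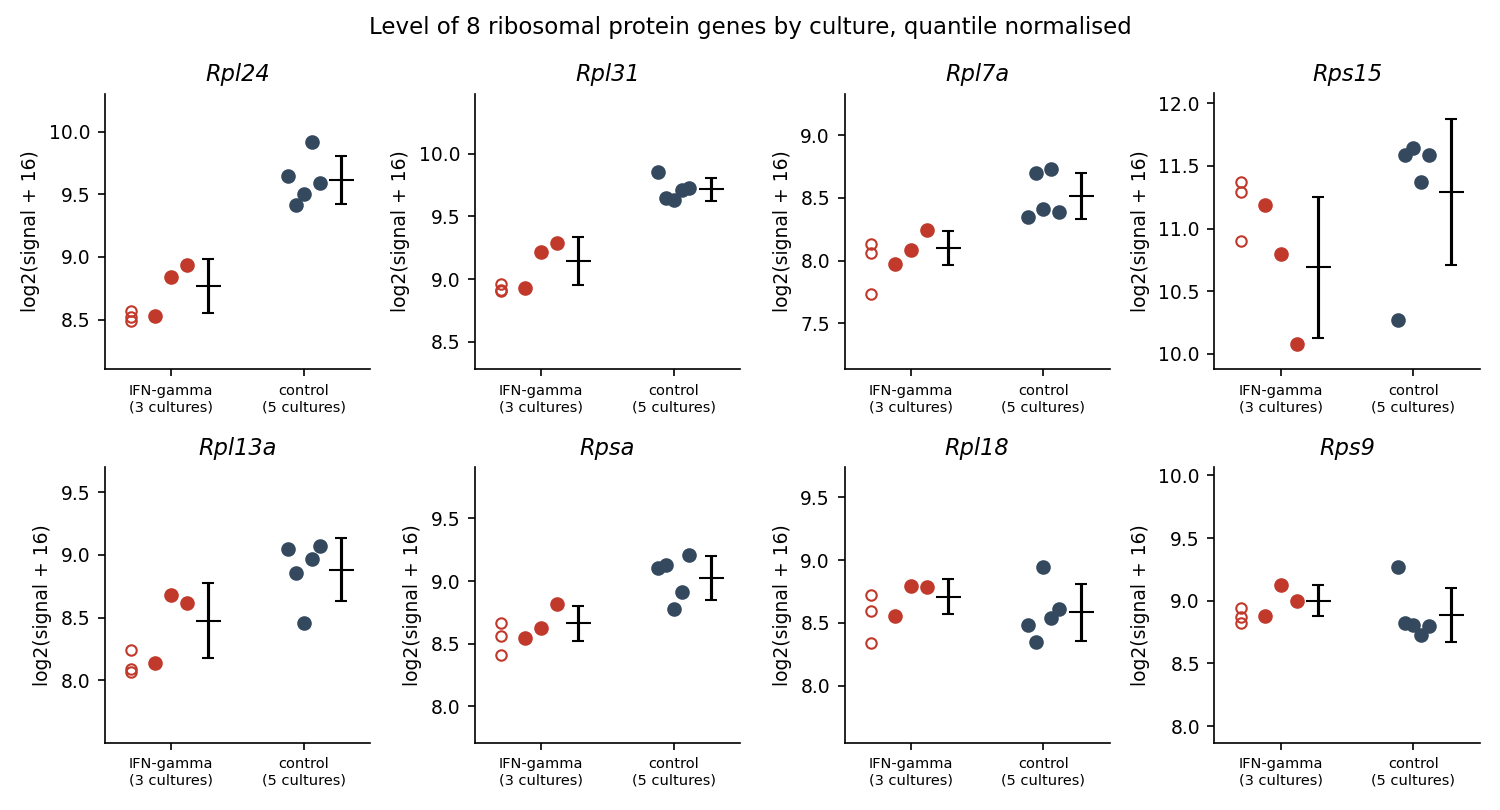
Quantile normalised level, log2(signal + 16), of 8 ribosomal protein genes in the 3 IFN-gamma cultures (red, left) and the 5 control cultures (dark, right). Open circles are the 3 technical arrays of IFN-gamma culture 1, bars are the mean ± SD over cultures, and every panel spans the same 2.2 log2 units. The groups are apart for Rpl24, Rpl31 and Rpl7a and overlap for Rps15, Rpl13a, Rpsa, Rpl18 and Rps9.

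The lowest differences of the small subunit were those of Rps15, Rps16 and Rps27l. Rps15, a protein of the head of the small subunit close to the decoding site, had levels of 11.2, 10.8 and 10.1 in IFN-gamma cultures, against 10.3, 11.6, 11.6, 11.4 and 11.6 in control cultures. Control culture 1 lay with the treated cultures, and the difference of -0.60 had an adjusted p of 0.663 by limma. The 3 probe sets of Rps15 gave -0.60, -0.51 and -0.37, and the brightest, whose values are given here, is one that the array's design marks as of reduced specificity. The probe set of Rps15 at -0.51 read 7.67, 7.79 and 7.89 in IFN-gamma cultures and 8.63, 8.20, 8.14, 7.95 and 8.56 in control cultures. Its groups were apart, control culture 1 was the highest there, and its adjusted p was 0.371 by limma. Rps16, whose tail reaches the peptidyl site, had 9.08, 9.71 and 10.1 in IFN-gamma cultures and 10.3, 9.70, 9.91, 10.0 and 10.3 in control cultures. Culture 1 of the IFN-gamma group was the lowest of the 8, and the difference was -0.42 (adjusted p = 0.648 by limma). Rps27l, a paralog of Rps27, gave -0.40 (adjusted p = 0.533 by limma), with an SD of 0.0707 over IFN-gamma cultures and 0.297 over control cultures.

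Several members have known duties outside the ribosome. Rpl13a leaves the ribosome of human myeloid cells after IFN-gamma and joins a complex that silences the translation of inflammatory messages. Its level was 8.13, 8.68 and 8.61 in IFN-gamma cultures, against 9.05, 8.85, 8.46, 8.97 and 9.07 in control cultures. Control culture 3 lay among the treated cultures, and the difference was -0.41 with an adjusted p of 0.562 by limma. Rpsa, also known as the laminin receptor precursor, had 8.55, 8.63 and 8.82 in IFN-gamma cultures and 9.11, 9.13, 8.77, 8.92 and 9.21 in control cultures, a difference of -0.36 (adjusted p = 0.492 by limma). Again only control culture 3 reached into the range of the treated cultures.

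Rpl5 and Rpl11, which together with the ribosomal RNA of the same particle can bind Mdm2, gave differences of -0.24 and -0.31. Rps6, the substrate of the S6 kinases, gave -0.30, and Rps3, a protein at the entry of the message channel, gave -0.13. Rplp0, the base of the stalk that recruits elongation factors and a gene often taken as a reference in quantitative PCR, had 9.56, 9.56 and 9.97 in IFN-gamma cultures and 9.96, 10.1, 9.66, 9.79 and 9.76 in control cultures. Its groups overlapped over nearly their whole range, with a difference of -0.15 (95% interval -0.55 to 0.24). Rpl3, a protein near the peptidyl transferase centre, gave -0.29. Rpl22, which is needed for T cell development in mice, gave -0.40. None of these 7 passed the test, with adjusted p of 0.576 to 0.884 by limma.

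The 7 genes with a difference above 0 were Rpl3l (0.26), Rpl18 (0.13), Rps9 (0.12), Rpl4 (0.10), Rpl36al1 (0.085), Rpl30 (0.082) and Rps24 (0.039). Rpl3l, which in mammals is made mainly in heart and skeletal muscle, had 5.49, 5.52 and 5.55 in IFN-gamma cultures and 5.04, 5.15, 5.13, 5.89 and 5.06 in control cultures. Only control culture 5 exceeded the treated cultures. Rpl18 had 8.55, 8.79 and 8.78 in IFN-gamma cultures and 8.48, 8.34, 8.95, 8.54 and 8.61 in control cultures. Rps9, which lies at the channel through which the message enters, had 8.88, 9.13 and 8.997 in IFN-gamma cultures and 9.27, 8.82, 8.81, 8.73 and 8.79 in control cultures. In each of these 2 genes 1 control culture lay above all treated cultures and the others below most of them. The adjusted p of these 7 genes by limma was 0.804 to 0.991.

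The 20 members not yet given a value, 14 of the large and 6 of the small subunit, all had differences between -0.39 and -0.067. On the brightest probe set of each gene, which represents it, the groups overlapped in every case, and their adjusted p was 0.519 to 0.982 by limma.

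Of the 43 genes 17 had several probe sets, which gave 1 sign in 15. Over the 63 probe sets the IFN-gamma cultures lay wholly below the controls in 7 (11.1%, against 3.4% of all probe sets) and wholly above them in 0 (4.28%). These were both probe sets of Rpl24 and 1 each of Rpl31, Rpl7a, Rpl23, Rpl26 and Rps15, and those of the last 3 do not represent their gene in the counts above. That of Rpl23 gave -0.35 with an adjusted p of 0.485 by limma. In Rps3 the 2 probe sets gave -0.13 and 0.076. Those of Rps6 gave -0.30 and -0.090, those of Rpl3 -0.29 and -0.085, and those of Rpl13a -0.41 and -0.20. They lay closer together in Rpsa (-0.36 and -0.33) and Rpl11 (-0.31 and -0.26). Rpl26, a large subunit protein at the tunnel exit, showed a wide gap between probe sets of 1 sign. Its brightest gave -0.17 with 8.78, 8.83 and 9.21 in IFN-gamma cultures and 9.32, 9.94, 7.17, 9.74 and 9.40 in control cultures. The low reading of control culture 3 made up that spread. The other probe set of Rpl26 gave -0.73 with groups apart and an adjusted p of 0.198 by limma. In Rps29, the gene with the largest share of signal, the 2 probe sets gave -0.067 and -0.48. The 40 probe sets that list a ribosomal protein gene among several symbols had a median of -0.23, with 33 below 0 and 0 called by limma, against 0.927% of all probe sets called higher and 0.606% called lower (0 of the 40 were higher and 9 lower at an unadjusted p under 0.05).

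The mean level over the 29 large subunit genes was 7.70, 7.99 and 8.07 in IFN-gamma cultures, against 8.27, 8.19, 7.89, 8.23 and 8.20 in control cultures. Over the 14 small subunit genes it was 8.15, 8.48 and 8.35 in IFN-gamma cultures, against 8.72, 8.43, 8.53, 8.45 and 8.68 in control cultures. In both subunits IFN-gamma culture 1 was the lowest of its group and the groups overlapped. Among the controls culture 3 was the lowest for the large subunit but not for the small, where culture 2 was the lowest. The large subunit mean was 7.92 ± 0.195 and 8.16 ± 0.150, and the small subunit mean was 8.33 ± 0.166 and 8.56 ± 0.132, in IFN-gamma and control cultures (SD, n = 3 and 5). The median difference of the genes was -0.29 for the large and -0.27 for the small subunit, against -0.021 over all genes.

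The balance between the subunits was set out within each culture. The large minus small mean was -0.45, -0.49 and -0.29 in IFN-gamma cultures and -0.45, -0.24, -0.63, -0.22 and -0.48 in control cultures. These ranges overlap, with means of -0.41 ± 0.108 and -0.40 ± 0.174 (SD, n = 3 and 5). The offset itself compares different probe sets and has no meaning as a level, but its difference between groups was -0.0064 under quantile normalisation and 0.0014 to 0.025 under the other scalings. That is below the spread between cultures of either group under each of them. A constant added to all log2 values of an array cancels in this balance, so its likeness across scalings is largely built in.

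**Figure D3:**
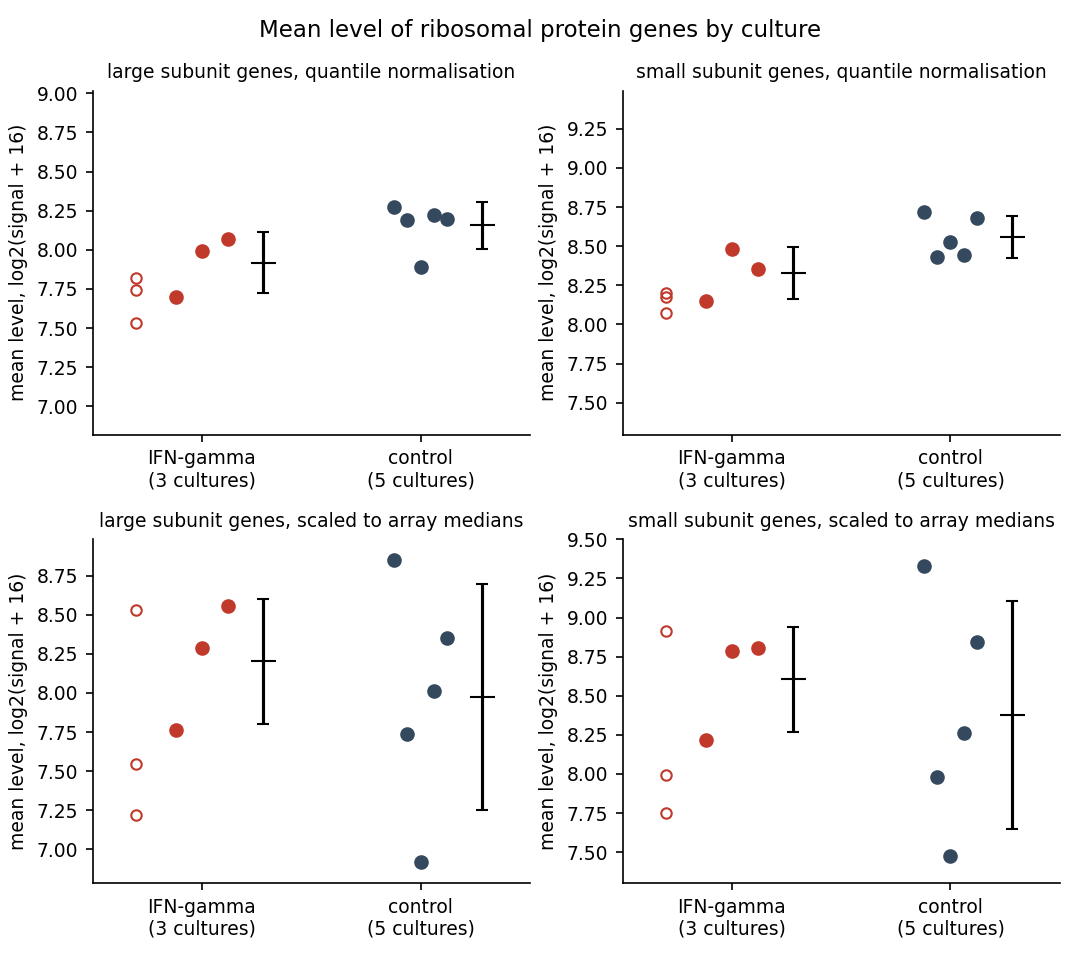
Mean level, log2(signal + 16), of the 29 large (left panels) and 14 small subunit genes (right panels) per culture, after quantile normalisation (top) and after scaling each array to its median (bottom). IFN-gamma cultures are red and on the left, control cultures dark and on the right, open circles are the technical arrays of IFN-gamma culture 1, and bars are the mean ± SD. The mean of the IFN-gamma group is lower than that of the control group in the top panels and higher in the bottom panels, with overlap in all 4.

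The direction of the median difference depended on how the arrays were brought to 1 scale. A shift of a whole array moves both subunits alike, so that their medians stay together across such scalings by construction. The median difference of the large and of the small subunit was -0.29 and -0.27 after quantile normalisation, and -0.24 and -0.25 after cyclic loess. It was -0.15 for both after scaling to total signal, and -0.024 and -0.039 after scaling to a mean trimmed by 2% at each end. It was 0.080 and 0.069 after scaling to the 75th percentile, 0.24 for both after scaling to array medians, and 0.36 and 0.37 with no scaling. No member was called by limma under any of these 7, with a smallest adjusted p of 0.0575 for Rpl24 under quantile normalisation. The median over all genes moved as well, by up to -0.14 (total signal) and 0.11 (no scaling). Relative to it the members' median was -0.25 under quantile normalisation, -0.22 under cyclic loess, -0.011 under total signal, 0.047 under the trimmed mean, 0.10 under the 75th percentile and 0.25 under array medians or no scaling.

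**Figure D4:**
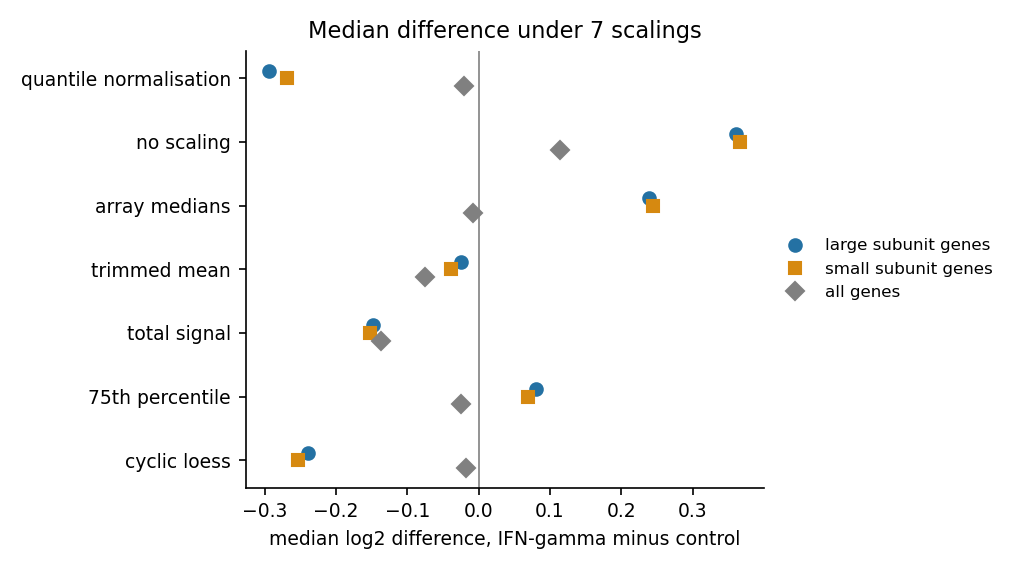
Median log2 difference, IFN-gamma minus control, of large subunit genes (circles), small subunit genes (squares) and all genes (diamonds) under 7 scalings of the arrays. The circles and squares, which a shift of a whole array moves alike, run from -0.29 under quantile normalisation to 0.37 without scaling, while all genes run from -0.14 to 0.11.

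The values above 0 were not kept when control culture 3, the array with the lowest signal, was left out. No other culture was left out under those scalings, and the cause was not tested. Without control culture 3, an alternative added after seeing the data, the large and small subunit medians were -0.039 and -0.025 under array medians. They were -0.016 and -0.0031 with no scaling, and -0.11 and -0.10 under the 75th percentile. Under quantile normalisation they were -0.34 and -0.26 without that culture. The value of the large subunit under quantile normalisation was smallest, -0.13, when IFN-gamma culture 1 was left out. With no scaling, the mean level of the large subunit was 7.73, 8.36 and 8.77 in IFN-gamma cultures, against 9.04, 7.54, 6.48, 8.13 and 8.48 in control cultures. Technical arrays of the same IFN-gamma culture then ran from 7.00 to 8.85, which is wider than the difference between the groups.

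Bright genes in general moved with the scaling. Among other genes at a level of 9 to 10, the median difference was -0.0061 under quantile normalisation, 0.68 under array medians and 0.80 with no scaling. The 9 members at that level had -0.29, 0.37 and 0.50 under the same scalings. At a level of 8 to 9 the 67 other genes had -0.18, 0.37 and 0.49, and the 12 members had -0.31, 0.28 and 0.40. In every range of level from 6 upward the members' median was below that of the other genes under all 7 scalings. At 9 to 10 under total signal, for example, it was -0.050 against 0.25. At 5 to 6, with 3 members, it was above under quantile normalisation (0.039 against -0.019) and below under cyclic loess (-0.12 against -0.048). The cause was not tested.

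Single genes kept or changed their sign across the 7 scalings. Rpl24, Rpl5 and Rps2-ps1 were below 0 under all 7, at -0.85 to -0.053 for Rpl24 and -0.43 to -0.080 for Rpl5. Rpl18, Rps9, Rpl36al1 and Rpl3l were above 0 under all 7, at 0.13 to 0.84 for Rpl18 and 0.12 to 0.88 for Rps9. The other 36 genes took both signs, Rpl31 among them at -0.57 to 0.23. Groups that did not overlap were found under cyclic loess for 6 members, all lower (Rpl24, Rpl31, Rpl39, Rpl5, Rpl7a and Rps29), where 3.91% of all genes were lower in that way. Under the trimmed mean and total signal Rpl5 alone was so placed, against 4.08% and 4.84% of all genes. Rpl5 was dim, at 5.48 in IFN-gamma and 5.72 in control cultures under quantile normalisation, where 4 is a signal of 0. Its technical arrays of IFN-gamma culture 1 then read 5.99, 5.20 and 5.28, against 5.34 to 5.89 in control cultures. Under array medians, the 75th percentile and no scaling no member was apart in either direction. There 2.26%, 3.34% and 0.676% of all genes were apart and lower, and 3.84%, 3.86% and 3.40% apart and higher.

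When each array was centred on its own ribosomal protein probe sets, an alternative added after seeing the data, 1 constant was taken from every difference obtained with no scaling, so the order of the genes was that of no scaling by construction. In that order Rpl5 gave -0.40 and Rpl24 gave -0.37, while Rps9 gave 0.56 and Rpl18 gave 0.52. The IFN-gamma and control cultures were then apart for Rpl24, which was lower, and for Rpl18, Rps3 and Rps9, which were higher, against 0.802% and 2.77% of all genes. The centring takes out array differences that the members share, so these shares of all genes are not a like background for them. The adjusted p of all these by limma was 0.9998.

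The share of the summed deposited signal that an array gave to ribosomal protein probe sets does not change with a linear scaling. The 63 probe sets held 4.61%, 6.02% and 5.99% of it in IFN-gamma cultures, against 8.11%, 5.90%, 4.88%, 5.73% and 7.19% in control cultures. The lowest share was in a treated culture and the highest in a control, but the ranges overlapped. The large subunit held 2.88% ± 0.534 in IFN-gamma cultures and 3.26% ± 0.733 in control cultures, and the small subunit 2.66% ± 0.299 and 3.11% ± 0.580 (SD, n = 3 and 5). The ratio of large to small was 1.08 ± 0.118 in IFN-gamma cultures and 1.05 ± 0.105 in control cultures. Rps29 led, with 0.763% and 0.415% of the signal in its 2 probe sets, followed by Rps15 with 0.489%. The median member stood at a percentile of signal between 96.5 and 97.7 on IFN-gamma arrays and between 97.6 and 98.1 on control arrays.

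**Figure D5:**
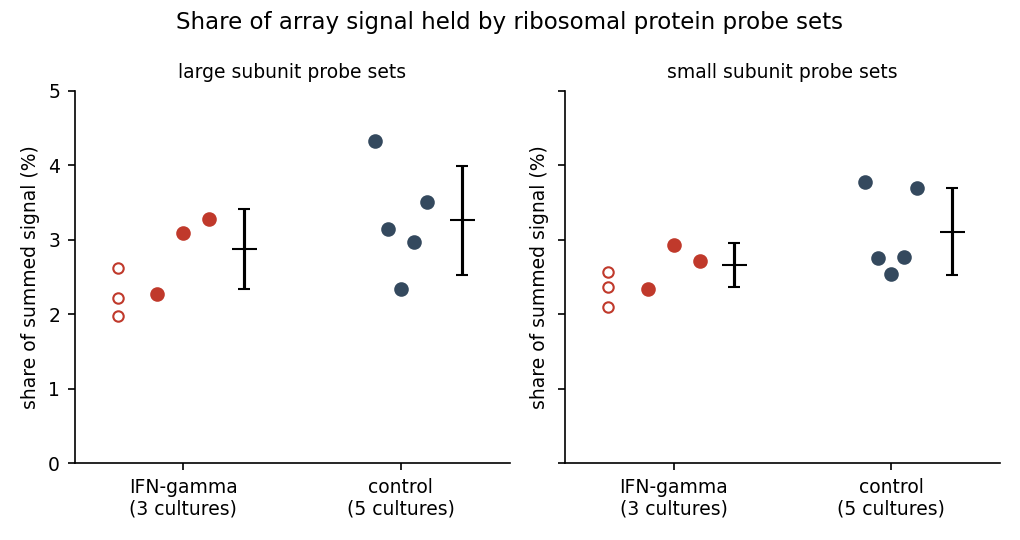
Share of the summed signal of an array, in percent, held by large subunit (left) and small subunit probe sets (right), for the 3 IFN-gamma cultures (red, left in each panel) and 5 control cultures (dark). Open circles are the technical arrays of IFN-gamma culture 1 and bars are the mean ± SD. Both groups overlap in both panels.

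Genes that work beside the ribosomal proteins were measured in the same fit. The elongation factors, whose messages also carry the TOP motif, gave -0.52 for Eef1g, -0.35 for Eef1a1 and -0.33 for Eef2. Hnrnpa1, another TOP message of the same list, gave 0.30, and 0 of these 4 genes were called. Rack1, a scaffold protein of the small subunit without an Rps symbol, gave -0.27. Of 14 mitochondrial ribosomal protein genes 0 were called, with a median of 0.17, and Mrpl3 had the smallest adjusted p of them (0.77, adjusted p = 0.305 by limma), followed by Mrpl40 (0.33) and Mrpl50 (0.44). Of 10 genes of ribosome biogenesis 0 were called, with a median of 0.16. All 10 were above 0, at 0.015 to 0.38, where 52.9% of all genes were below 0. Polr1b, a subunit of RNA polymerase I, gave 0.30, Nop58 0.38 and Polr1d 0.19. Of 5 regulators of TOP messages 0 were called, with Tsc2, an inhibitor of mTOR signalling, at -0.65 (adjusted p = 0.330 by limma), Mtor at 0.53 and Eif4ebp1 at 0.61. At an unadjusted p under 0.05 these 4 lists held 1 higher gene (Mrpl3) and 2 lower genes (Eef1g and Tsc2). Of all genes 5.85% were higher and 5.26% lower at that threshold. Groups were apart for Eef1a1, which was lower, for Mrpl3, which was higher, and for no other gene of these 4 lists. The shares of all genes so placed were 3.65% lower and 4.16% higher. The S6 kinase gene Rps6kb1 gave 0.36 with overlapping groups.

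Markers of other cells and of growth moved in part with the groups, and their part in these results was not tested. The 4 markers of dividing cells had a summed level of 20.3 to 21.5 in IFN-gamma cultures and 21.7 to 24.1 in control cultures. Of the 4, 0 were called and all had differences below 0 (-0.94 to -0.16). Top2a, at 4.57 ± 0.430 against 5.51 ± 0.398, had groups apart and alone had an unadjusted p under 0.05. Without Top2a the sum was 16.0 to 16.9 in IFN-gamma cultures and 15.6 to 18.6 in control cultures. Of 7 astrocyte markers Glul was lower (-1.66, adjusted p = 0.00301 by limma), and their sum was 36.9 to 38.1 in IFN-gamma cultures and 38.3 to 41.2 in control cultures, while Gja1 lay near the floor of 4 in both (4.24 and 4.11). Without Glul the sum of the other 6, whose differences ran from -0.18 to 0.13, overlapped, at 29.6 to 30.6 in IFN-gamma cultures and 29.2 to 31.7 in control cultures. The sum of the 10 microglial markers was 65.2 to 66.8 in IFN-gamma cultures and 62.8 to 65.0 in control cultures. In that list C1qc (1.31), C1qb (1.14) and Itgam (0.79) had groups apart and higher, while Cd14 (-0.34), P2ry12 (-0.65), Cx3cr1 (-0.29) and Fcgr2b (-0.28) were below 0 with overlapping groups. Without C1qb and C1qc the sum was 47.4 to 48.4 in IFN-gamma cultures and 46.4 to 49.1 in control cultures. Of 8 oligodendrocyte, 7 neuronal and 7 fibroblast and vessel markers 0 were called, and their sums overlapped between groups. At an unadjusted p under 0.05, 3 of the oligodendrocyte markers were lower (Mag at -0.70, Pdgfra at -0.72 and Cspg4 at -0.56, with groups apart for Mag and Cspg4), as were 2 of the fibroblast and vessel markers (Col1a2 at -0.71 and Col3a1 at -0.55), against 5.26% of all genes. The array's own 5S ribosomal RNA probe set read 4.50 to 5.09 in IFN-gamma cultures and 4.68 to 6.27 in control cultures. The ratio of 3′ to 5′ signal was 1.30 to 1.59 in IFN-gamma cultures and 1.33 to 1.81 in control cultures for Gapdh, and 1.97 to 2.25 and 1.51 to 2.29 for beta-actin.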

How the data were processed

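Total RNA labelled with biotin was hybridised to 10 Affymetrix rat arrays, per the labels. The authors deposited a linear signal intensity for every probe set of each array. Per the submitters' processing notes MAS5 and GCRMA were used, with no version or role named, so the tool behind the deposited intensity values remains unknown here. From these, log2(signal + 16) was computed and quantile normalised over all probe sets. The 59 array controls were then left out and arrays 1a, 1b and 1c averaged, which gave 3 IFN-gamma and 5 control cultures. Precision is limited by this number. A signal of 0 is 4 on this scale, so differences of dim genes are understated. At most 80 probe sets shared a signal between 2 arrays, and no array was taken as a duplicate.

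The test was limma 3.58.1 (R 4.3.3) with lmFit and eBayes on the 2 groups, two-sided. Its p-values were adjusted by Benjamini-Hochberg over the 8740 remaining probe sets, and 0.05 was the threshold. The step was checked on simulated data. A gene is represented by its probe set with the highest mean. Symbols came from the platform annotation (7006 probe sets with 1 symbol). Of the 43 members 42 had their Entrez identifier in the RefSeq table of GRCr8, and 0 symbols changed. Named are the 8 most negative and up to 8 positive differences (7 were above 0), the 5 smallest adjusted p, a set of members named whether they passed or not, and up to 3 genes of each neighbouring list. The members, lists and named genes were chosen with earlier results of these data known. Promoter sequences are from RefSeq, matched for 37 members by gene identifier or symbol.

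Alternatives were other scalings, pseudocounts of 1, 4 and 64, a filter at a level of 5, leaving out probe sets of reduced specificity, gene means, single technical arrays, culture as a random block, a trend with robust fitting, and leaving out each culture. Leaving out pseudogene and paralog symbols was another. Centring on the members, cultures 1 to 3 alone and the scalings without control culture 3 were added after seeing the data.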

Additional observations from a re-analysis of the deposited data

Results flagged for a closer look

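A control culture was looked at more closely where its gap to the nearest of the other 4 exceeded Dixon's critical value. Of 28 sets of control values tested (23 named genes and 5 summaries over subunits) 5 had such a culture. The nominal rate of the rule is about 1 in 20. These sets come from the same cultures, and many of the genes were named for their differences. The count was therefore not compared with chance. Rps15 stood at 10.3 in control culture 1, against 11.4 to 11.6 in the other controls. Rps9 stood at 9.27 in the same culture, against 8.73 to 8.82. Rpl27a stood at 9.97 in control culture 2, against 10.3 to 10.5 in the other controls. Rpl3l stood at 5.89 in control culture 5, against 5.04 to 5.15. The mean level of the large subunit genes stood at 7.89 in control culture 3, the array with the lowest signal, against 8.19 to 8.27, and without that culture the median difference of the large subunit was -0.34.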

How the results depend on the processing

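No member was called higher under any setting, and members were called lower by limma under 3. Rpl24 and Rpl31 passed, a count of 2, with a pseudocount of 64 (adjusted p = 0.0191 and 0.0233) and with all 10 arrays and culture as a random block (0.0109 and 0.0472, estimated correlation 0.228). Rpl24 alone, a count of 1, passed with a trend and robust fitting (0.0168). Of all 8740 probe sets, 104 were called higher and 62 lower with the pseudocount of 64. These counts were 124 and 73 with the random block, and 94 and 55 with a trend and robust fitting. The correlation of the random block rests on IFN-gamma culture 1, the only culture with several arrays. Over all alternatives run for Rpl24, its adjusted p by limma ran from 0.0109 to 0.9998 and its difference from -0.93 to -0.053. The difference between the subunit medians stayed within -0.11 to 0.11 under all of them, which for shifts of whole arrays holds by construction. The large and small subunit medians were -0.26 and -0.15 without probe sets of reduced specificity. They were -0.30 and -0.20 without pseudogene and paralog symbols. Without IFN-gamma culture 2 the order turned, with -0.23 and -0.34.

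The cause of the following changes was not tested. The large and small subunit medians were 0.36 and 0.37 with no scaling, 0.24 and 0.24 under array medians, -0.024 and -0.039 under the trimmed mean, 0.080 and 0.069 under the 75th percentile, and 0.040 and 0.046 when centred on the members themselves. Without control culture 3 they were -0.039 and -0.025 under array medians, -0.016 and -0.0031 with no scaling, and -0.11 and -0.10 under the 75th percentile. Leaving out each culture in turn under quantile normalisation gave -0.38 to -0.13 for the large subunit and -0.34 to -0.15 for the small subunit, and differences in the share of signal of -0.61 to -0.075 and -0.59 to -0.28 percentage points.

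Over all probe sets, 81 were higher and 53 lower. The counts were 38 and 1 with no scaling, 100 and 27 under array medians, 80 and 32 under the 75th percentile and 25 and 3 when centred on the members, so that 97.4%, 78.7%, 71.4% and 89.3% of calls were higher, against 60.4%. They were 42 and 25 with a pseudocount of 1, 53 and 32 with 4, 39 and 20 without probe sets of reduced specificity and 124 and 73 with the random block. Without control culture 3 they were 74 and 32 under array medians and 37 and 11 with no scaling. Leaving out each culture gave 47 to 106 higher and 21 to 50 lower.

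The culture numbers 1 to 3 were not taken to pair the groups. Deviations of cultures of the same number correlated at -0.027, 0.0038 and -0.015. These values alone cannot show whether such cultures are paired. A replicate block over those cultures gave 17 higher and 5 lower probe sets, against 39 and 18 without the block in the same cultures, and 0 members in both.

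Named genes that changed sign against quantile normalisation, none of them called before or after, are listed by setting, and the cause was not tested. With no scaling the sign turned for Rpsa (0.38), Rps6 (0.40), Rpl31 (0.23), Rpl3 (0.57), Rps15 (0.082), Rpl22 (0.094), Rpl13a (0.32), Rpl7a (0.26), Rplp0 (0.66), Rps16 (0.43), Rps3 (0.67), Rpl27a (0.42), Rps27l (0.17) and Rpl11 (0.41). Under array medians the sign turned for Rpsa (0.25), Rps6 (0.28), Rpl31 (0.11), Rpl3 (0.45), Rpl13a (0.20), Rpl7a (0.14), Rplp0 (0.54), Rps16 (0.31), Rps3 (0.55), Rpl27a (0.30), Rps27l (0.051) and Rpl11 (0.28). Under the trimmed mean the sign turned for Rps24 (-0.077), Rpl3 (0.13), Rplp0 (0.23) and Rps3 (0.24). Under total signal the sign turned for Rpl30 (-0.045), Rps24 (-0.16), Rpl4 (-0.027), Rpl3 (0.0050), Rplp0 (0.10) and Rps3 (0.11). Under the 75th percentile the sign turned for Rpsa (0.061), Rps6 (0.082), Rps24 (-0.0088), Rpl3 (0.24), Rpl13a (0.012), Rplp0 (0.34), Rps16 (0.10), Rps3 (0.35), Rpl27a (0.089) and Rpl11 (0.088). Under cyclic loess the sign turned for Rps24 (-0.12) and Rpl4 (-0.041). When centred on the members the sign turned for Rpsa (0.055), Rps6 (0.077), Rps24 (-0.17), Rpl3 (0.25), Rpl13a (0.0023), Rplp0 (0.34), Rps16 (0.11), Rps3 (0.35), Rpl27a (0.097) and Rpl11 (0.084). Without probe sets of reduced specificity the sign turned for Rps3 (0.076). With array 1a alone for IFN-gamma culture 1 the sign turned for Rps24 (-0.00074). With array 1b alone the sign turned for Rps24 (-0.12). With array 1c alone the sign turned for Rpl36al1 (-0.28). With the random block the sign turned for Rps24 (-0.0016) and Rpl36al1 (-0.016). Leaving out 1 culture turned the sign of Rps24 (-0.13 to 0.24), Rpl30 (-0.092 to 0.19), Rpl36al1 (-0.045 to 0.28) and Rpl4 (-0.11 to 0.30).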

Other observations

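The pseudogene symbol Rps2-ps1 had a dim probe set with the highest difference of all 63 member probe sets. It read 4.13, 4.93 and 5.19 in IFN-gamma cultures, against 4.09, 4.16, 4.09, 4.12 and 4.11 in control cultures, where 4 is a signal of 0. Its difference was 0.63 with an adjusted p of 0.338 by limma, and its groups overlapped through IFN-gamma culture 1. The brighter probe set of Rps2-ps1 gave -0.26. In Rps29 the brighter probe set read 11.4, 12.004 and 11.9 in IFN-gamma cultures and 12.004, 11.6, 11.8, 11.7 and 12.1 in control cultures, while the other read 10.4, 11.0 and 10.9 in IFN-gamma cultures and 11.5, 10.9, 11.0, 11.2 and 11.4 in control cultures.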
